A study of Mus musculus with 17 samples.

Results

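The 10 genes described here encode calcium/calmodulin-dependent protein kinases and the catalytic subunits of calcineurin. They were taken by symbol from the 3 deposited count tables, which list 25239 genes each, and all 10 were found in every table. They fall into 4 roles: the subunits of CaMKII (Camk2a, Camk2b, Camk2d and Camk2g), the kinases Camk1d and Camk4, the upstream kinases Camkk1 and Camkk2, and the calcineurin catalytic subunits Ppp3ca and Ppp3cb. The study sequenced bulk RNA of mice of the DAT-cre line, which carry Cre recombinase under control of the dopamine transporter gene and so in dopamine neurons. The mice went through an addiction protocol called oDASS (optogenetic self-stimulation of dopamine neurons), and those that persevered (perseverers, addicted) were set against those that gave up (renouncers, non-addicted).

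There were 17 libraries in 6 groups, and every group was of the same line. Before the protocol, imprints of brain tissue were taken from the orbitofrontal cortex (OFC), with 3 libraries of later renouncers and 2 of later perseverers. After it, dissected pieces of OFC gave 3 libraries of renouncers and 3 of perseverers, and dissected pieces of medial prefrontal cortex (mPFC) gave 3 and 3. Stage and way of collection therefore cannot be told apart. The age of the mice and any group that did not go through the protocol are not analysed here. Nothing in the labels ties a library to a mouse, so replicates may or may not come from different mice, and p-values measure the spread between these libraries, which may be technical.

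Calcium that enters a neuron binds calmodulin, and calcium-loaded calmodulin switches on both kinases and a phosphatase. CaMKII is a large ring of subunits that phosphorylates itself and stays active after the calcium signal has passed, a step needed for long-term potentiation at excitatory synapses. CaMKK phosphorylates and activates CaMKI and CaMKIV, and CaMKIV acts in the nucleus on CREB-dependent transcription. Calcineurin removes phosphate from NFAT transcription factors, CRTC coactivators and synaptic proteins, and is needed for long-term depression.

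The dissection libraries held 12392731 to 20945108 counts, of which 0.0253% to 0.0787% fell on haemoglobin genes. The imprint libraries held 8960549 to 10662666 counts with 29.7% to 90.7% on haemoglobin genes, which left 980536 to 6556052 counts for all other genes. The upper value is renouncer replicate 1, and the other 4 imprints had at most 1306627. Markers of excitatory cortical neurons (Slc17a7, Slc17a6, Neurod2, Neurod6 and Tbr1) were present in all 12 dissections, with a summed level of 1485 to 2134 CPM (the usual depth-scaled count; marker sums are scaled to the counts outside haemoglobin). Lymphocyte, neutrophil and platelet markers were near 0 in the dissections and stood at 129 to 1685, 335 to 3537 and 1302 to 4134 CPM of the counts outside haemoglobin in the imprints.

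The 4 CaMKII genes are close in sequence, so it matters whether reads can be assigned to one of them. The stretch of 42 bases that codes for the autophosphorylation segment, where the threonine that keeps the kinase active lies, shows how far they differ in a part that all share. It is printed for the 3 genes below from GENCODE M21 on build GRCm38, in the coding direction, 5′ to 3′, with capitals at the bases that are not the same in all 3 genes.
Camk2b: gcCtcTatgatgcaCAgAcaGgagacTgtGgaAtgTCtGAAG
Camk2d: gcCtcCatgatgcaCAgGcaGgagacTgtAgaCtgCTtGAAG
Camk2g: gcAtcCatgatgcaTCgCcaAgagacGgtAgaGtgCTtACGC
The stretch lies within 1 coding exon in each gene, at chr11:5988982-5989023 on the minus strand for Camk2b, at chr3:126797717-126797758 on the plus strand for Camk2d and at chr14:20760424-20760465 on the minus strand for Camk2g. Of the 42 bases, 15 differ somewhere among the genes, 6 between Camk2b and Camk2d, 15 between Camk2b and Camk2g and 11 between Camk2d and Camk2g. Over whole transcripts, the longest identical run between any pair of the 10 genes was 43 bases (Camk2b and Camk1d), the longest among the CaMKII genes 34 (Camk2a with Camk2b and with Camk2d), and no pair shared a run of 50. The sources used here give neither the read length nor the way of counting. Of the 10 genes only Camk4 shares annotated exon bases with another gene (2.21% of them, with 2310026I22Rik), and the library kit does not keep strand.

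Per length, Camk2a was the most abundant of the 10 genes in the cortex dissections, and Camk4 and Camk2g had the lowest means. Levels per length are RPKM, the CPM after scaling by the trimmed mean of M-values (TMM) divided by the gene length of the deposited tables in kilobases. Over the 12 dissections Camk2a, the alpha subunit of forebrain excitatory neurons, averaged 440 RPKM ± 170.1 (SD, n = 12) and stood above every other gene of the group in all 12 libraries. Ppp3ca, the alpha catalytic subunit of calcineurin, followed at 164 RPKM ± 18.2, and Camk2b, the beta subunit that ties CaMKII to actin, at 152 RPKM ± 23.4. Those neighbours were not separated: Ppp3ca was above Camk2b in 7 of 12 libraries.

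Lower in the order came Camkk2 at 53.2 RPKM ± 13.4, Camkk1 at 34.1 ± 6.33 and Ppp3cb at 31.4 ± 4.56 (SD, n = 12). Camkk2 exceeded Camkk1 in 11 of 12 libraries, and Camkk1 exceeded Ppp3cb in 8 of 12. The last 4 were Camk2d at 12.1 RPKM ± 5.22, Camk1d at 11.95 ± 1.21, Camk4 at 8.97 ± 1.95 and Camk2g at 8.35 ± 2.10. Camk2d was above Camk1d in 5 of 12 libraries and Camk4 above Camk2g in 8 of 12, so neither pair has a firm order. Camk4 has a length of 12331 bases in the deposited tables and 3259 exon bases in GENCODE M21, so its place depends on the length used. The 2 lengths also differ for Camkk2 (4889 and 10921), Ppp3cb (3831 and 8809) and Camk2d (8588 and 22493), but little for Camkk1 (3885 and 3728). The order of other genes, Camkk2 over Camkk1 among them, therefore holds for the deposited lengths only. Across the 12 libraries, Camk2d varied most, by 3.41-fold from lowest to highest, followed by Camk2a with 3.21-fold, and Camk1d least, with 1.35-fold.

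**Figure D1:**
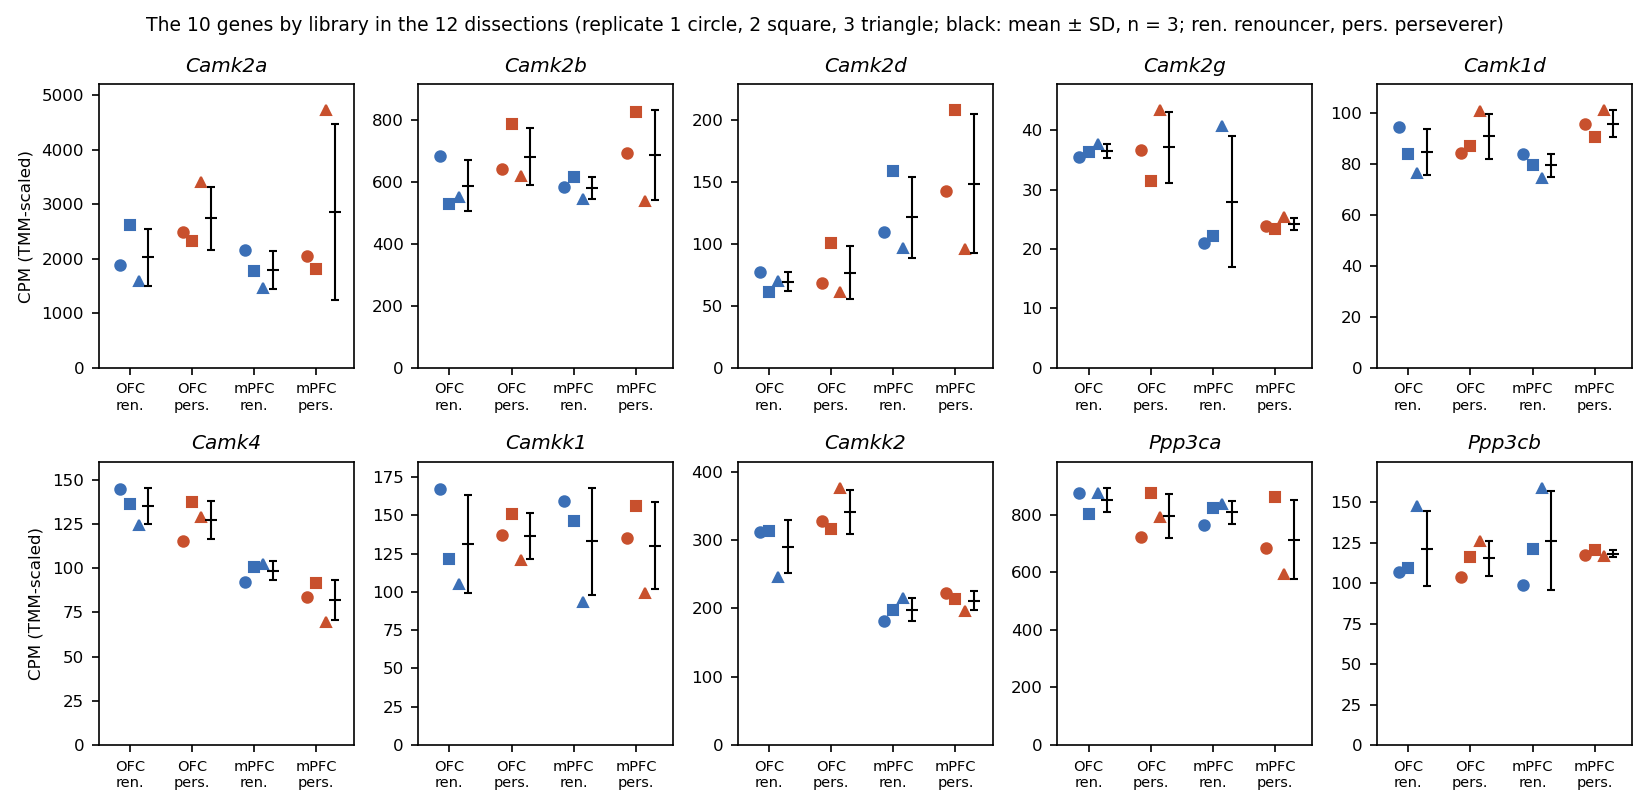
Level of each of the 10 genes in the 12 dissection libraries, in CPM after TMM scaling (vertical axes, each from 0), by region and phenotype; points are libraries and black bars the mean ± SD of 3. Camkk2 and Camk4 are higher in all 6 OFC libraries than in any mPFC library, and 1 mPFC perseverer library has 4723 CPM of Camk2a.

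Among the dissections, the genes of the group that passed a test did so between the 2 cortical regions. Camkk2 and Camk4 were higher in OFC, by 1.54-fold and 1.46-fold, and Camk2d was lower there, at 0.544 of the mPFC level. These 3 of the 10 genes passed edgeR's quasi-likelihood test over both phenotypes at an adjusted p (Benjamini-Hochberg, over 15025 genes) below 0.05, where 1.76% of all genes tested did. In OFC 2 of 10 were higher (0.892% of all genes) and 1 was lower (0.865%). In a fit that also held the 5 imprints none of the 3 passed, at adjusted p of 0.211 for Camkk2, 0.558 for Camk4 and 0.163 for Camk2d. The other 7, among them Camk2a, Camk2b and both calcineurin subunits, did not pass. Such a difference in bulk tissue cannot tell fewer cells that express a gene from less RNA per cell.

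The gene Camkk2 lies at chr5:122731170-122779409 on the minus strand (GRCm38). Camkk2, the upstream kinase that also activates AMP-activated kinase, had 313, 313 and 246 CPM in the OFC renouncer libraries and 328, 316 and 377 CPM in the OFC perseverer libraries. In mPFC it had 182, 198 and 215 CPM in renouncers and 223, 214 and 196 CPM in perseverers. Every OFC library was above every mPFC library, the closest being 246 and 223. The log2 fold change of OFC over mPFC was 0.62 ± 0.10 (SE), with an adjusted p of 0.00369 by edgeR, and the call held without any 1 of the 12 libraries. Its sister gene Camkk1 did not separate the regions, with 105 to 167 CPM in OFC and 93.4 to 159 CPM in mPFC.

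Camk4, the nuclear kinase that Camkk2 and Camkk1 activate, had 145, 137 and 124.2 CPM in OFC renouncers and 115.5, 137 and 129 CPM in OFC perseverers. In mPFC the values were 92.4, 100.5 and 102 CPM in renouncers and 83.9, 91.9 and 69.5 CPM in perseverers. The regions did not overlap, and the lowest OFC library (115.5) lay above the highest mPFC library (102). The log2 fold change was 0.55 ± 0.10 (SE; edgeR adjusted p = 0.00849), and the call held without any 1 library. Camkk2 and Camk4 were thus the 2 of 10 genes without overlap in that direction, as were 1.01% of all genes.

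The gene Camk2d lies at chr3:126596302-126846326 on the plus strand (GRCm38). Camk2d, the delta subunit of CaMKII, which many tissues besides brain express, had 76.9, 61.4 and 69.7 CPM in OFC renouncers and 68.6, 100.6 and 60.9 CPM in OFC perseverers. In mPFC it had 109, 158 and 96.2 CPM in renouncers and 142, 207.5 and 95.3 CPM in perseverers. The regions overlapped, since OFC perseverer replicate 2 was above the third replicate of each mPFC group. Camk2d fell by 0.88 ± 0.18 (SE) on the log2 scale from mPFC to OFC (edgeR adjusted p = 0.0246). That call was lost, at adjusted p of 0.0521 to 0.0941, without OFC renouncer 2 or 3, OFC perseverer 1 or 3, mPFC renouncer 1 or 2, or mPFC perseverer 1 or 2.

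Camk2g, the gamma subunit, encoded at chr14:20734875-20794088 on the minus strand (GRCm38), had higher values in most OFC libraries than in most mPFC libraries. It had 35.5, 36.3 and 37.7 CPM in OFC renouncers and 36.6, 31.5 and 43.4 CPM in OFC perseverers, against 21.0, 22.2 and 40.7 CPM in mPFC renouncers and 23.9, 23.3 and 25.4 CPM in mPFC perseverers. Only mPFC renouncer replicate 3 reached into the OFC range. The log2 fold change of 0.50 ± 0.15 (SE) did not pass (edgeR adjusted p = 0.127), but without that library it was 0.68 with an adjusted p of 0.00509, and DESeq2 and limma voom called it with all 12 libraries (0.0484 and 0.0145).

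**Figure D2:**
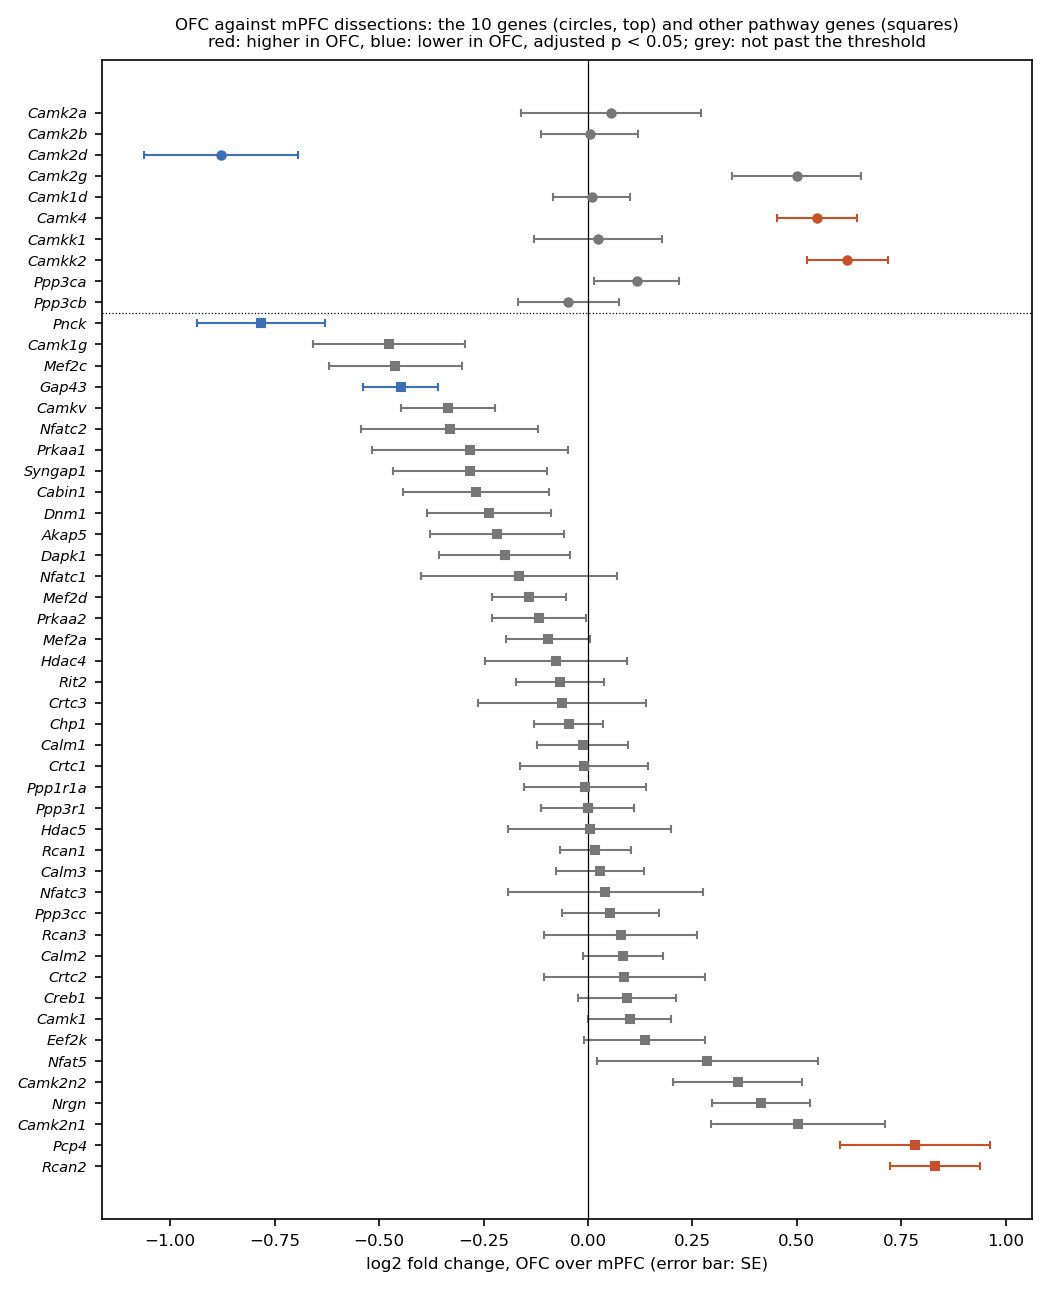
Log2 fold change of OFC over mPFC dissections (horizontal axis, bars SE) for the 10 genes (circles) and the 41 tested genes of the wider pathway (squares). Camkk2, Camk4, Rcan2 and Pcp4 pass the threshold as higher in OFC and Camk2d, Pnck and Gap43 as lower; Camk2a, Camk2b and the calcineurin subunits sit near 0.

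For the genes near 0 the data set limits on a difference. The approximate 95% interval (from the SE and a normal distribution) of the log2 fold change of OFC over mPFC ran from -0.23 to 0.23 for Camk2b, from -0.17 to 0.19 for Camk1d, from -0.28 to 0.19 for Ppp3cb and from -0.08 to 0.32 for Ppp3ca. That of Camk2a was wider, from -0.37 to 0.48, because its libraries ranged from 1596 to 3403 CPM in OFC and from 1471 to 4723 CPM in mPFC. Intervals built this way are too narrow with so few libraries. Between perseverers and renouncers in mPFC, that of Camk2a (0.02 to 1.32) left out 0, although edgeR's unadjusted p was 0.0707. Over the 10 genes the median log2 fold change was 0.04, beside 0.00 for all genes tested.

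Ratios of 2 genes within a library do not depend on scaling and show the same region pattern. They come from the same counts as the differences above and so are no separate support. The count ratio of Camk2d to Camk2g was 1.41 to 3.20 in the 6 OFC dissections (median 1.86) and 2.36 to 8.89 in the 6 mPFC dissections (median 5.58), with mPFC renouncer replicate 3 alone inside the OFC range. The ratio of Camkk1 to Camkk2 was 0.320 to 0.534 in OFC and 0.434 to 0.877 in mPFC, and there mPFC renouncer replicate 3 and mPFC perseverer replicate 3 fell inside the OFC range. In contrast, Ppp3ca had 5.94 to 8.17 counts per count of Ppp3cb in OFC and 5.09 to 7.73 in mPFC, and the ratio of Camk2a to Camk2b overlapped over most of its range.

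**Figure D3:**
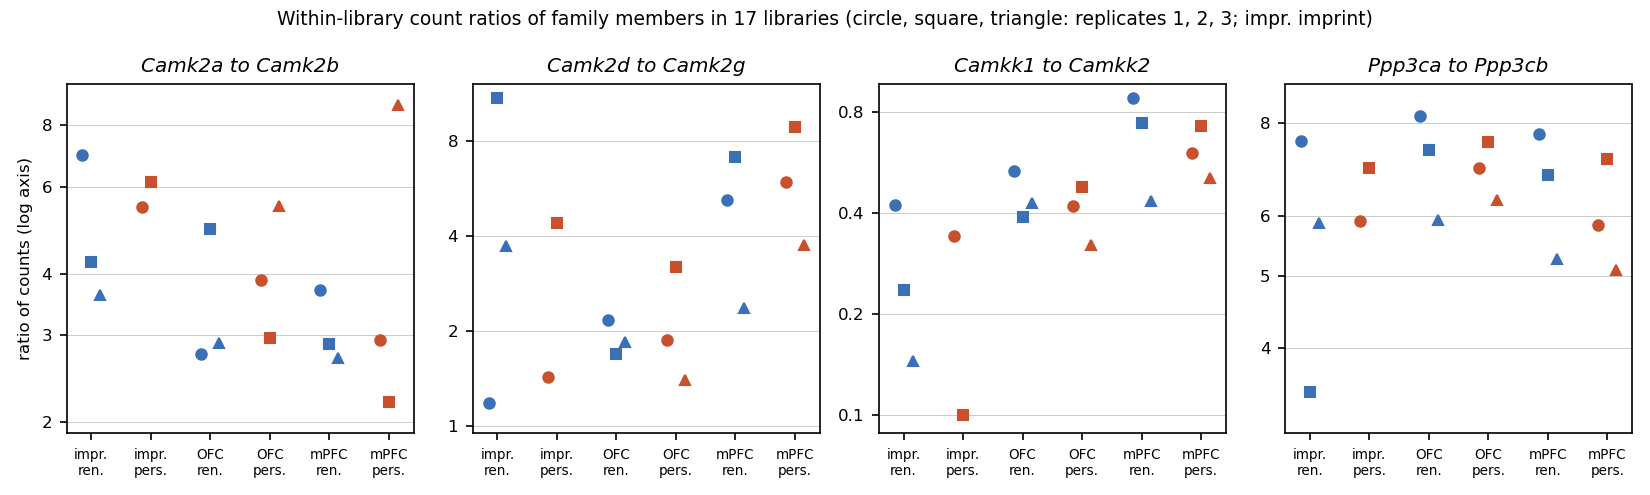
Within-library ratio of counts (vertical axes, log scale) for 4 pairs of related genes in all 17 libraries, by group. Camk2d to Camk2g is higher in mPFC than in OFC dissections except in mPFC renouncer replicate 3, and Camk2a to Camk2b reaches 8.79 in mPFC perseverer replicate 3.

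The region difference went with a difference in oligodendrocyte markers. The 5 markers (Mbp, Mog, Mag, Mobp and Cnp) summed to 4908 to 17650 CPM in OFC and 1682 to 6937 CPM in mPFC, and none was at 0 in any dissection. The log2 fold change was above 0 for 5 of 5, with a median of 0.71 and none past the threshold. In OFC Camk2d was lowest (60.9 CPM) in the library with the most marker counts and highest (100.6 CPM) in that with the fewest. In mPFC it was highest (207.5 CPM) in the library with the fewest and lowest (95.3 and 96.2 CPM) in the 2 with the most. Camk2g was high in mPFC renouncer replicate 3, the mPFC library with the most marker counts. In OFC Camkk2 was lowest (246 CPM) at 13470 CPM of the markers and highest (377 CPM) at 17650 CPM. Camk4 was lowest there (115.5 CPM) at 12750 CPM and highest (145 CPM) at 7425 CPM. For mPFC, Camkk2 was lowest (182 CPM) at 3586 CPM and highest (223 CPM) at 4158 CPM. Camk4 was lowest in mPFC (69.5 CPM) at 6035 CPM and highest (102 CPM) at 6937 CPM. With the mean log2 level of the markers as a covariate, a setting added after seeing the data, the log2 fold change was -0.29 for Camk2d (edgeR adjusted p = 0.603), 0.07 for Camk2g, 0.54 for Camkk2 (0.196) and 0.63 for Camk4 (0.105). None of the 10 genes was called in that fit, in which 22 of 15025 genes were. Marker level went with region in these libraries, so the covariate also takes up part of the region difference. Oligodendrocyte content and region cannot be told apart here, and the part of the former in the result was not tested. Striatal projection neuron markers (Ppp1r1b, Drd1, Adora2a, Penk and Rgs9) also separated the regions, with a sum of 231 to 290.1 CPM in OFC and 138 to 204.5 CPM in mPFC. Of these 5 markers 3 had a log2 fold change above 0 and 2 below (-0.18 to 0.77), 1 was called higher, and their part in the result was not tested. Of 5 astrocyte markers 1 was called higher in OFC as well, with 4 above 0, 1 below and a median of 0.07. Their sums overlapped, at 2277 to 2947 CPM in OFC and 1965 to 2573 CPM in mPFC, and their part was not tested either.

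**Figure D4:**
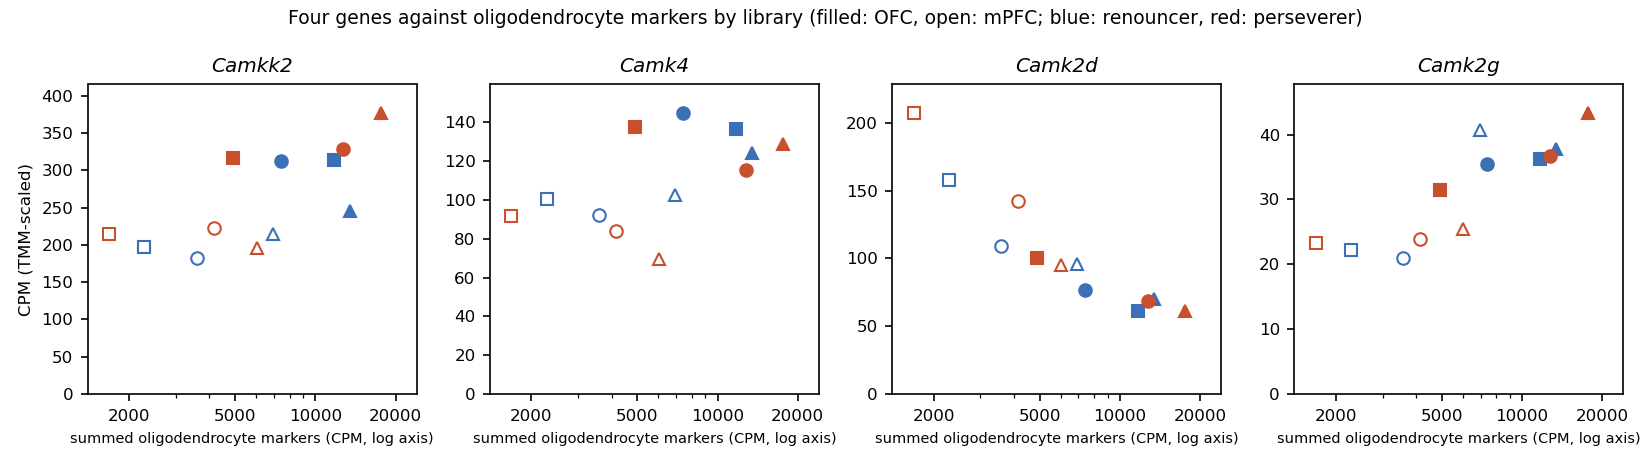
CPM after TMM scaling of Camkk2, Camk4, Camk2d and Camk2g (vertical axes) against the summed CPM of 5 oligodendrocyte markers (horizontal axes, log scale) in the 12 dissections. Camk2d has 207.5 CPM at the lowest marker level and 60.9 CPM at the highest. For Camk4 and Camkk2 all OFC libraries (filled) lie above all mPFC libraries (open). Marker level and region go together and cannot be told apart.

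Within each phenotype alone, the directions were the same, with 3 libraries against 3. The 3 genes were picked from a fit of these same libraries, so this agreement is no separate support. In renouncers the log2 fold changes were 0.55 for Camkk2, 0.46 for Camk4 and -0.81 for Camk2d, and in perseverers 0.67, 0.62 and -0.97. None passed in either (edgeR adjusted p from 0.218 to 0.372 in renouncers and from 0.338 to 0.583 in perseverers), in fits that called 15 and 8 genes in all. The test of whether the region difference itself differed between the phenotypes called 0 of 15025 genes in edgeR, DESeq2 and limma voom (225, 287 and 659 at an unadjusted p below 0.05). For the 3 genes called between regions, the phenotype difference in OFC minus that in mPFC was 0.14 ± 0.20 (SE) for Camkk2, 0.18 ± 0.20 for Camk4 and -0.15 ± 0.38 for Camk2d. Without mPFC perseverer replicate 2, the last of these was 0.15. Leaving out 1 library moved the first to between 0.03 and 0.19 and the second to between 0.06 and 0.25. The smallest p among the wider pathway in each direction belonged to Nfatc1 (0.74 ± 0.45) and Akap5 (-0.33 ± 0.32).

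Of the wider pathway, a list of 43 genes that bind calmodulin or act around these enzymes, 41 were tested between regions and 4 passed, where 1.76% of all genes did. Rcan2, a regulator that binds and inhibits calcineurin, was higher in OFC, with 348 to 500.0 CPM (median 410.2) against 203 to 269 (median 223), a log2 fold change of 0.83 ± 0.11 (SE; edgeR adjusted p = 0.000974). Pcp4, a small protein that speeds calcium exchange on calmodulin, was higher too, with 455 to 822 CPM against 250.2 to 569.8 (0.78 ± 0.18, adjusted p = 0.0389). Of its exon bases, 23.7% are shared with Igsf5. Gap43, a growth cone protein that holds calmodulin at the membrane, was lower in OFC, with 238 to 302 CPM against 334 to 384 (-0.45 ± 0.09, adjusted p = 0.0194). Pnck, a kinase of the CaMKI family, was lower as well, with 41.6 to 60.0 CPM against 62.8 to 121 (-0.78 ± 0.15, adjusted p = 0.0163).

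Rcan2, Gap43 and Pnck did not overlap between the regions, and Pcp4 did. Of all genes, 1.01% were higher in OFC without overlap, as was Rcan2, and 0.885% lower, as were Gap43 and Pnck. Rcan2 was called without any 1 library. Pnck was lost without mPFC renouncer 2 or mPFC perseverer 1, Gap43 without these or OFC renouncer 2 or OFC perseverer 3, and Pcp4 without 8 of the 12, at adjusted p of at most 0.0996. None of the 3 calmodulin genes, the 2 CaMKII inhibitor genes, the 2 tested calcineurin subunits, the 13 tested transcription factors and coregulators or the 5 other substrates passed. All 4 calls were lost with all 17 libraries in 1 fit, in each phenotype alone and with the oligodendrocyte covariate, which took Pcp4 to 0.14. The median log2 fold change of the 41 was -0.01.

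Between perseverers and renouncers no gene of the group differed beyond the spread in OFC. There edgeR called 0 of 14621 genes, as did DESeq2 and limma voom (377, 420 and 950 at an unadjusted p below 0.05). Camk2a had 1878, 2611 and 1596 CPM in OFC renouncers and 2492, 2329 and 3403 CPM in OFC perseverers. The groups overlapped, and the log2 fold change of perseverers over renouncers was 0.42 ± 0.22 (SE; edgeR adjusted p = 0.951). It was 0.24 without OFC perseverer replicate 3 and 0.27 without OFC renouncer replicate 3. Camkk2 was the 1 gene of 10 whose perseverer libraries (316 to 377 CPM) were all above the renouncer libraries (246 to 313 CPM), which 5.47% of all genes were, and its log2 fold change was 0.22 ± 0.16, or 0.10 without OFC renouncer replicate 3 and 0.14 without OFC perseverer replicate 3.

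The beta subunit gene Camk2b had a log2 fold change of 0.20 ± 0.18 (SE) in OFC, with 618.8 to 786 CPM in perseverers and 529.9 to 683 CPM in renouncers. That value ran from 0.08 without OFC perseverer replicate 2 to 0.33 without OFC renouncer replicate 1, and was 0.12 without OFC renouncer replicate 2. For the other 7 genes it was smaller than its SE, and their approximate 95% intervals (too narrow, as above) lay between -0.42 and 0.53. Of 41 tested pathway genes none passed. The smallest p in each direction belonged to Nfatc3, an NFAT factor (0.85 ± 0.26), and Camk1 (-0.28 ± 0.15).

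In mPFC the same comparison called 0 of 14375 genes in edgeR, DESeq2 and limma voom (639, 767 and 2151 at an unadjusted p below 0.05), and so none of the 10. Camk2a had 2164, 1769 and 1471 CPM in mPFC renouncers and 2042, 1819 and 4723 CPM in mPFC perseverers, so the groups overlapped but for 1 library. Its log2 fold change was 0.67 ± 0.33 (SE; edgeR adjusted p = 0.943), and 0.10 without mPFC perseverer replicate 3. That library stood apart over all genes, with a chi-square per degree of freedom of 67.1 and 98.9 against mPFC perseverers 1 and 2. Between those it was 16.7. Without mPFC perseverer replicate 3, edgeR gave 1849 genes an unadjusted p below 0.05 in mPFC, against 639 with it. In that library Camk4 (69.5 CPM) and Ppp3ca (594 CPM) were the lowest of the 12 dissections, and 8.79 counts of Camk2a stood beside each count of Camk2b.

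Camk1d, a CaMKI family kinase, had 83.96, 79.7 and 74.7 CPM in mPFC renouncers and 95.6, 90.6 and 101 CPM in mPFC perseverers. It was the 1 gene of 10 without overlap in that direction, beside 5.68% of all genes, and its log2 fold change was 0.27 ± 0.15 (SE; edgeR adjusted p = 0.943). Camk4 was the 1 without overlap in the other direction, beside 5.22% of all genes, at -0.27 ± 0.17, with 83.9, 91.9 and 69.5 CPM in perseverers and 92.4 to 102 CPM in renouncers. Without mPFC perseverer replicate 3 it stood at -0.16. Camk2b stood at 0.24 ± 0.19, or 0.09 without mPFC perseverer replicate 2 and 0.39 without mPFC perseverer replicate 3, and Camk2d at 0.29 ± 0.28, the latter at -0.03 without mPFC perseverer replicate 2. For the other 5 genes the difference was smaller than its SE. None of 41 pathway genes passed, and those with the smallest p were Hdac4, a class IIa histone deacetylase that CaM kinases keep out of the nucleus (0.65 ± 0.21), and Ppp3cc (-0.31 ± 0.19). Of the exon bases of Hdac4, 22.4% are shared with Gm26720.

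The imprints taken from OFC before the protocol gave few counts for these genes outside renouncer replicate 1. Camk2a had 13456 counts in that library, against 419 and 738 in imprints of the other renouncers and 748 and 418 in those of perseverers. Camk2g had 312 counts there, and only 2 and 14 in the other renouncer imprints. The perseverer imprints held 37 and 5. Against later renouncers, edgeR called 0 of 10530 genes in later perseverers, as did DESeq2 and limma voom (181, 237 and 517 at an unadjusted p below 0.05), and none of the 10 genes. Scaled over the 5 imprints, haemoglobin included, Camk2b had 27.7, 26.4 and 29.0 CPM in renouncers and 12.1 and 15.7 CPM in perseverers. Its log2 fold change was -0.99 ± 0.47 (SE; edgeR adjusted p = 0.9999).

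On that scale 4 of the 10 genes (Camk2a, Camk2b, Camk2d and Ppp3cb) had all perseverer imprints below all renouncer imprints, which held for 8.02% of all genes. Camk2a had 192, 111.6 and 105 CPM against 66.3 and 96.7 CPM. As a share of the counts outside haemoglobin, all 4 overlapped. Camk2b then had 99.4 CPM in renouncer replicate 2 and 105 CPM in perseverer replicate 1. Of the markers of other cells none passed the threshold between these imprints. Yet 5 of 5 lymphocyte markers had a log2 fold change above 0 (median 1.38; summed 129 to 458 CPM outside haemoglobin in renouncers, 602 and 1685 in perseverers), and 4 of 4 tested neutrophil markers (median -1.14), 5 of 5 platelet markers (-0.62) and 5 of 5 astrocyte markers (-0.28) one below 0. Neutrophil sums were 335 to 3537 CPM in renouncers and 663 and 1602 CPM in perseverers, with 1 or 2 of the 5 markers at 0 in 4 of the 5 imprints. Platelet sums were 2226 to 4134 CPM against 1302 and 2479 CPM, and astrocyte sums 339 to 2302 CPM against 609 and 990 CPM. Their part in the result was not tested. Camkk1 had a log2 fold change of -0.92 ± 0.76, which was -0.12 without renouncer replicate 1, -0.51 without perseverer replicate 2 and -1.43 without perseverer replicate 1, and the other 8 genes differed by less than their SE. With 2 perseverer imprints, leaving out either leaves a lone library that is assumed to vary like the rest. None of 40 pathway genes passed, and the smallest p in each direction belonged to Ppp3cc (0.83 ± 0.67) and Hdac4 (-1.09 ± 0.57).

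Set against OFC dissections, the imprints had lower levels of most of these genes, relative to the other genes of the library. Of the 10 genes 8 were lower and none higher at an adjusted p below 0.05 (edgeR, 15229 genes), where 33.5% of all genes were called, 17.9% lower and 15.6% higher. The largest differences were in Camkk1, which fell by 1.72 ± 0.33 (SE) on the log2 scale, Camk2b, which fell by 1.42 ± 0.25, and Ppp3ca, which fell by 1.12 ± 0.23. The median was -0.91 over the 10 genes and -0.16 over all genes tested.

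Scaled over the 11 OFC libraries, Camkk1 had 35.4 to 56.6 CPM in the dissections (median 42.1) and 27.7, 11.5 and 8.17 CPM in renouncer and 11.2 and 6.07 CPM in perseverer imprints (edgeR adjusted p = 0.000736). The highest imprint was renouncer replicate 1, and it was still below every dissection. Camk2b had 170.8 to 265 CPM in the dissections (median 202) and 102, 95.2 and 111.05 CPM in renouncer and 46.7 and 58.9 CPM in perseverer imprints (adjusted p = 0.000378). Here the perseverer imprints were the lowest and no imprint reached the dissections. Ppp3ca had 237 to 297 CPM in the dissections (median 276) and 172, 74.0 and 144 CPM in renouncer and 113 and 126.5 CPM in perseverer imprints (adjusted p = 0.00121).

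The other calls in the same direction were Camkk2 (-0.97 ± 0.22, adjusted p = 0.00246), Camk4 (-0.92 ± 0.25, 0.0103), Ppp3cb (-0.90 ± 0.20, 0.00277), Camk2a (-0.89 ± 0.29, 0.0272) and Camk1d (-0.80 ± 0.21, 0.00825), all by edgeR. For 7 of the 8 genes called, Camk2a being the exception, the imprints and the dissections did not overlap, which held for 15.7% of all genes in that direction. Camk2a overlapped because imprint renouncer replicate 1, at 709 CPM, was above 2 of the 6 dissections, which had 538 to 1069 CPM. Its call was lost, at adjusted p of 0.0523 to 0.0851, without either perseverer imprint, OFC renouncer 2 or any 1 of the 3 OFC perseverers. RLE (relative log expression) scaling (0.0608) and a stricter filter (0.0596) also ended it, and limma voom did not call Camk1d (0.0806) or Ppp3cb (0.0664).

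Camk2d and Camk2g were the 2 genes not called, at -0.20 ± 0.24 and -0.34 ± 0.37 (-0.32 to -0.05 and -0.64 to -0.14 without 1 library). Camk2d had 19.1 to 33.9 CPM in the dissections and 18.1 to 28.3 CPM in the imprints, and Camk2g had 10.6 to 13.6 CPM and 1.92 to 16.4 CPM. The direction of both turned once each library's trend with gene length was removed, to 0.27 and 0.08. In that fit 5 of the 10 genes were lower (Camk2b, Camkk1, Camkk2, Camk4 and Ppp3ca), and the median over all genes was 0.14.

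**Figure D5:**
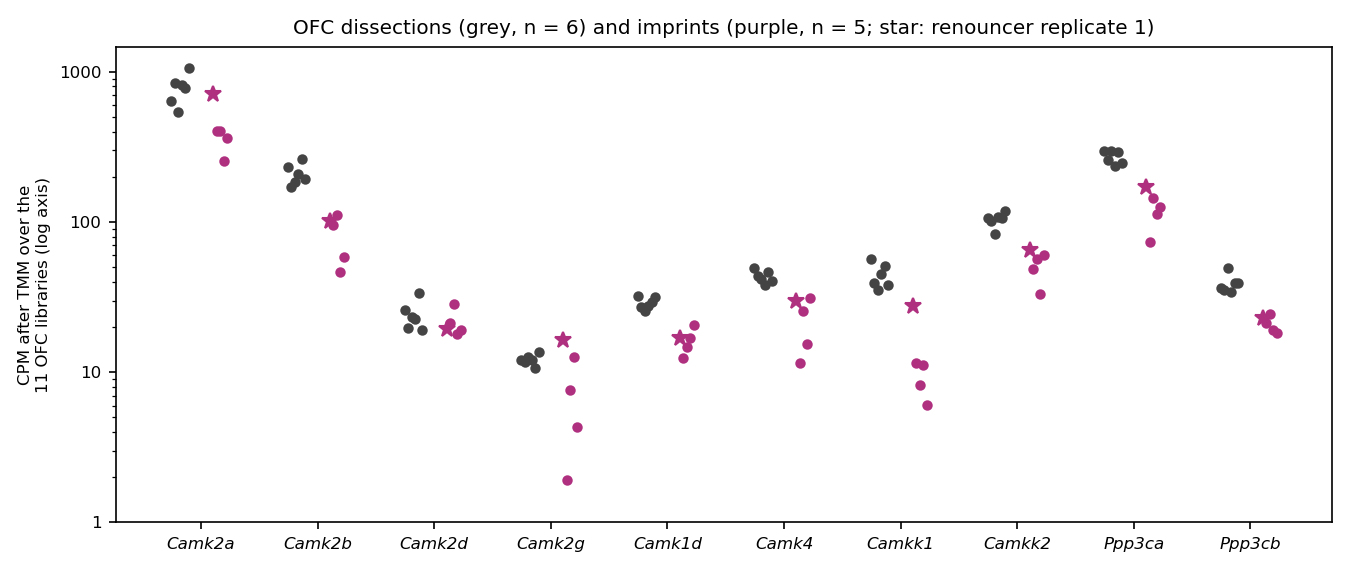
Level of the 10 genes in OFC dissections and OFC imprints, in CPM after TMM scaling over those 11 libraries (vertical axis, log scale); the star is imprint renouncer replicate 1, the imprint with the fewest haemoglobin counts. All 5 imprints lie below all 6 dissections for 7 genes, and the groups overlap for Camk2a, Camk2d and Camk2g.

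Set against the sum of pan-neuronal markers, these genes compared otherwise than set against all genes. The 5 pan-neuronal markers (Snap25, Syt1, Rbfox3, Stmn2 and Map2) were all lower in imprints, 4 of them past the threshold, with a median log2 fold change of -1.18. Their values ran from -2.31 to -0.03, so a ratio to their sum depends on the markers chosen. The markers summed to 576 to 3007 CPM of counts outside haemoglobin in imprints and to 5972 to 8137 CPM in OFC dissections. For every 100 counts of these markers, OFC dissections had 21.9 to 52.9 counts of Camk2a (median 33.8) and imprints 33.01 to 73.0 (median 58.6). For Camkk2 the medians were 4.52 and 7.41, for Ppp3ca 12.04 and 16.6, for Ppp3cb 1.67 and 2.94 and for Camk2b 8.94 and 9.83. The ranges of Camk2a, Camkk2, Camk2b, Camk2g and Camk4 overlapped between dissections and imprints. Those of Ppp3ca, Ppp3cb, Camk2d and Camk1d did not, and all of these were higher in imprints. Camk2d had medians of 0.9794 in OFC dissections and 3.086 in imprints, and Camk1d had 1.207 and 2.207. The share of all genes without overlap in this ratio was not computed. Camkk1 was the 1 gene of the 10 with a lower median in imprints, 1.46 against 1.95. Its ranges overlapped, at 0.982 to 2.67 in imprints and 1.44 to 2.14 in OFC dissections. All 5 lymphocyte, all 4 tested neutrophil, all 5 platelet and all 6 red cell markers were higher in the imprints, and their part in the result was not tested.

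Of the wider pathway, 14 of 41 genes were lower in the imprints than in the dissections and 5 were higher. Over all genes tested, 17.9% were called lower and 15.6% higher. The lower ones with the smallest p were Ppp3r1, the regulatory subunit of calcineurin (-1.79 ± 0.22), the calmodulin gene Calm2 (-1.79 ± 0.22), Camk1 (-1.26 ± 0.20), the kinase-like Camkv (-1.23 ± 0.20), the death-associated kinase Dapk1 (-1.17 ± 0.28) and the transcription factor Mef2a (-1.08 ± 0.27). The higher ones were the NFAT factors Nfatc3 (3.02 ± 0.40) and Nfatc1 (2.74 ± 0.36), the calcineurin homologous protein gene Chp1 (2.69 ± 0.48), the CREB coactivator gene Crtc3 (1.39 ± 0.52) and the calmodulin-binding Nrgn (0.68 ± 0.22). The call of Crtc3 was lost without 9 of the 11 libraries (adjusted p of at most 0.123), and that of Nrgn without any 1 of the 3 OFC renouncer dissections or OFC perseverer 1 (at most 0.0645). Of the exon bases of Ppp3r1, 14.3% are shared with Wdr92.

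Scaling sets the balance of directions in this comparison. Of the genes called, 46.5% were higher in imprints after TMM scaling, 55.0% after RLE scaling, 64.8% after removal of the length trend, 23.3% with totals outside haemoglobin and 3.40% with library totals. The median of all genes moved to -0.03, 0.14, -0.80 and -2.82 and that of the 10 genes to -0.78, -0.48, -1.62 and -3.58 under those 4, and the 10 genes stayed below the median of all genes in each.

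Whether the phenotype difference itself differed between imprints and OFC dissections was tested too. No gene was called by edgeR or limma voom (1336 and 737 at an unadjusted p below 0.05), whereas DESeq2 called 73 of 15229, none of the 10 among them. The 2 genes with an unadjusted p below 0.05 were Camk2b, at -1.16 ± 0.40 (SE; edgeR adjusted p = 0.467), and Camk2a, at -1.12 ± 0.52 (0.567). Both had higher means in perseverers than in renouncers in the dissections and lower ones in the imprints. In the wider pathway the smallest p in each direction belonged to Hdac4 (-1.41 ± 0.52) and Ppp3cc (0.93 ± 0.54), and neither passed.

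The genes whose levels moved most like each of the 10 across the 12 dissections were found by the root mean square difference of centred log2 CPM among 14019 genes. For Camk2a these were Dlgap3, Ppp1r12b and Dlg2, with differences of 0.107, 0.114 and 0.123, against an SD of 0.476 for Camk2a itself. Dlgap3 and Dlg2 encode scaffold proteins of the postsynaptic density. The spread of Camk2a includes mPFC perseverer replicate 3 at 4723 CPM, and the likeness was not computed without that library. For Camk2d they were Ets2, Cpne6 and Slc24a4 (0.152 to 0.178, SD 0.565), for Camk4 Necab3, Osbpl1a and Plcb4 (0.103 to 0.125, SD 0.328) and for Camkk2 Zfp385b, Nat8l and Map6d1 (0.125 to 0.129, SD 0.357). The nearest gene was Prkar1b, a regulatory subunit of protein kinase A, for Camk2b (0.0658, SD 0.214) and Arap2 for Camk2g (0.134, SD 0.373). It was Sdha for Camk1d (0.068, SD 0.146) and Afg3l2 for Camkk1 (0.082, SD 0.28). For the calcineurin subunits it was Actr8 for Ppp3ca (0.0828, SD 0.171) and Stk16 for Ppp3cb (0.103, SD 0.198). None of the 10 genes was among the nearest 3 of another.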

How the data were processed

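The authors deposited raw counts per gene, whole numbers, in 3 tables (OFC imprints, OFC dissections, mPFC dissections) with a gene length. Per the labels' protocols, cDNA came from a SMART-Seq v4 kit and libraries from Nextera tagmentation. The submitters' processing notes name build mm10 and FastQC 0.11.8. The sources used here do not name the aligner or counter. Tests ran in edgeR 4.0.16 under R 4.3.3 (filterByExpr, TMM, robust quasi-likelihood test, 2-sided, Benjamini-Hochberg over all genes tested, adjusted p below 0.05). Region and stage fits carried phenotype as a covariate. DESeq2 1.42.0 and limma 3.58.1 (voom with quality weights) were alternatives, beside other scalings and filters (the strictest asked for 50 counts), all 17 libraries in 1 fit, haemoglobin genes left out, a length correction, a replicate block and leaving out each library. log2 CPM used a prior count of 2. The model code was tested on simulated data. No 2 replicates agreed within sampling noise.

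The 10 genes, the 43 pathway genes and the marker lists were chosen with earlier results of these data known. A few genes of the marker lists are not reported here and were left out of every sum and fit of markers. Named were all 10 genes (fold changes where at least 1 SE in size, all 10 for stage, and in tests of a difference between differences those called between regions or at an unadjusted p below 0.05), per comparison the pathway genes past the threshold, up to 6 a direction by smallest p, otherwise the 1 with the smallest p in each direction, and for each gene its 3 nearest in pattern. Symbols were matched to GENCODE M21 (10 of 10). Count depth limits precision mainly in the imprints.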

Additional observations from a re-analysis of the deposited data

Results flagged for a closer look

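In 2 of 42 groups of libraries checked, 1 library lay far from the others, by a threshold set so that chance flags about 1 in 20 groups. Camk2a had 4723 CPM in mPFC perseverer replicate 3, and its gap to the next of the 6 mPFC dissections took up 0.669 of their range on the log2 scale. Camk2g had 40.7 CPM in mPFC renouncer replicate 3, where the gap took up 0.713 of the range.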

How the results depend on the processing

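The directions of the region calls of Camkk2, Camk4 and Camk2d held under every alternative run, but their calls did not. None of the 10 genes was called between regions (0 against 3) with all 17 libraries in 1 fit, in renouncers alone, in perseverers alone or with oligodendrocyte markers as a covariate, the last 3 added after seeing the data. In the 17-library fit the log2 fold changes were 0.62, 0.55 and -0.88, with edgeR adjusted p of 0.211, 0.558 and 0.163, and the spread is then shared with the imprints. Leaving out 1 library gave 2 to 4 genes called between regions, 7 to 8 between imprints and dissections and 0 to 0 in the other 5 comparisons. Removing the length trend left 5 genes called between imprints and dissections, and turned Camk2d to 0.27 and Camk2g to 0.080. With library totals alone, which haemoglobin fills in the imprints, Nfatc3 (-0.16), Nfatc1 (-0.35), Chp1 (-1.24), Nrgn (-1.99) and Crtc3 (-1.01) turned between imprints and dissections. Ppp3cc turned to -0.97 between the imprint groups and to -0.85 in the difference between stages, and with totals outside haemoglobin Nrgn was at -0.025. Camk2d turned without mPFC perseverer replicate 2, to -0.028 between the mPFC groups and to 0.15 in the difference between regions, where leaving out 1 library gave -0.46 to 0.15. The cause was not tested.

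Over all genes the region comparison called 264 by edgeR, 685 by DESeq2, 888 by limma voom, 21 with all 17 libraries, 15 in renouncers, 8 in perseverers, 22 with the covariate and 120 to 448 without 1 library. Between imprints and dissections 5106 genes were called and 10490 with library totals. In the imprints alone the 17-library fit called 63 genes where the imprint fit called 0. Replicate numbers are shared between groups, but the labels do not say that they mark a mouse or a day, although the sample names of same-numbered OFC and mPFC dissections carry adjacent numbers. Same-numbered libraries' deviations correlated at 0.022 to 0.361 between regions (5 of 6 pairs over 0.1), where OFC renouncer 2 correlated more with mPFC renouncer 3 (0.053) than with its own number. They did so at -0.166 to 0.107 between the OFC groups, 0.05 to 0.133 between the mPFC groups, 0.179 to 0.256 between the imprint groups and 0.024 to 0.119 between stages. With a replicate block, 4 of the 10 genes were called between regions (Camk2g at 0.53, adjusted p = 0.017, joined them) and 1130 genes in all, 3924 between imprints and dissections and 0 within OFC, mPFC or imprints. The imprints' depth, down to 2 counts of Camk2g, limits what could be detected there.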
